A study of Ovis aries with 15 samples.

Results

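In the liver of fetal sheep (Ovis aries), 101 genes had their lowest level at gestational day (GD) 124 and were higher both at GD100 and at GD144. They were found among 31411 genes in a table of estimated counts, of which 9942 had means of at least 5 CPM (counts scaled to a common library total) at GD100 and at GD144. Each had a GD124 mean of at most 66.7% of the GD100 mean and of the GD144 mean, and its highest GD124 library lay below the lowest library of one or both other stages. Rows for tRNA genes and 2 further genes were left out. These values chose the genes, so the dip itself is a description and no test is given for it. The libraries are poly(A)-selected RNA of whole liver, 4 at GD100, 5 at GD124 and 6 at GD144. The labels name no treatment, genotype, strain or sex, and the 3 groups differ by gestational stage.

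The largest group by function, 20 of the 101, encodes proteins that assemble ribosomes, in classes assigned after the values were seen. This rank depended on GD144 replicate 4. Without that library, 7 of the 20 genes still met the rule. Of the 17 genes for signalling, cytoskeleton and the cell surface, all but FHOD1, INPP5E and NPR2 still met it. Among the 101 genes, the ribosome group was then not the largest. Ribosome assembly begins in the nucleolus, where RNA polymerase I makes the long precursor of ribosomal RNA. Assembly factors, helicases and methyltransferases cut, fold and modify this precursor while ribosomal proteins join it to form the small and the large subunit. In growing tissues such as fetal liver, this work takes much of a cell's capacity for making RNA and protein.

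Library totals ran from 24215612 to 38247295 counts, and the lowest value of any of the 101 genes in any library was 16.89 counts. A summed list of hepatocyte markers held 69376 to 181424 CPM in GD100 libraries, 222872 to 257459 in GD124 libraries and 192645 to 223927 in GD144 libraries, so the labelled tissue carried its markers at every stage. Erythroid markers held 5850 to 16397 CPM in GD100 libraries, 2056 to 4480 in GD124 libraries and 120 to 1054 in GD144 libraries. In such bulk samples, fewer cells of a type and less RNA per cell cannot be told apart. Sample codes begin with different letters in each stage, and a batch tied to those letters cannot be told apart from stage. No label says that libraries came from separate fetuses, and p-values measure only the spread between these samples, which may be technical. GD100 replicates 2 to 4 stood apart in counting, with fractional counts in 16.7 to 16.9% of genes, against 8.32 to 10.04% in the other libraries. The strand setting of the counting is not known, which makes the values of overlapping genes uncertain. This touches 38 of the 101 (37.6%), beside 39.2% of 9921 genes at the same level, and among the genes described with values here XRCC3, FKBP5, KLF13, EDIL3, EMC9, GADD45A, PPAN, TMEM200B, LRFN4, SLC25A20, GNL3, BOP1, DDX54, ABCG5, TMBIM1, ANKRD11, AIMP2, LOC101107641, LOC101102047 and LOC101108756.

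The dip was moderate in most of the 101 genes. The GD124 mean was 23.5 to 66.5% of the lower of both outer means, with a median of 61.5%, and 10 genes were at or below 50%. The median gene stood at 54.9% of its GD100 mean and 59.9% of its GD144 mean. All GD124 libraries lay below all libraries of both other stages in 48 genes, below those of GD100 alone in 28 and below those of GD144 alone in 25. Among the 9942 genes at this level, 0.976% lay below both stages, 18.4% below all of GD100, 13.8% below all of GD144, and 1.02% met every part of the rule; since the rule used these values, nothing is read from the comparison. Most of the genes were of low abundance, with a mean over the stages of 4.53 to 159 CPM and a median of 14.2, and 91 were under 50 CPM. Summed over all 101 genes, the level was 2162 to 3164 CPM in GD100 libraries, 1315 to 1490 CPM in GD124 libraries and 2300 to 3522 CPM in GD144 libraries. Within GD100 the sum was 2363, 3164, 2904 and 2162 CPM in replicates 1 to 4, the same order as the erythroid marker sum of 7117, 16397, 12388 and 5850 CPM and the reverse of the hepatocyte marker sum of 110757, 69376, 80093 and 181424 CPM. Replicate 2 was the highest GD100 library in 47 of the 101 genes and replicate 4 the lowest in 52. The part of these cell types in the levels of the 101 genes was not tested.

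**Figure D1:**
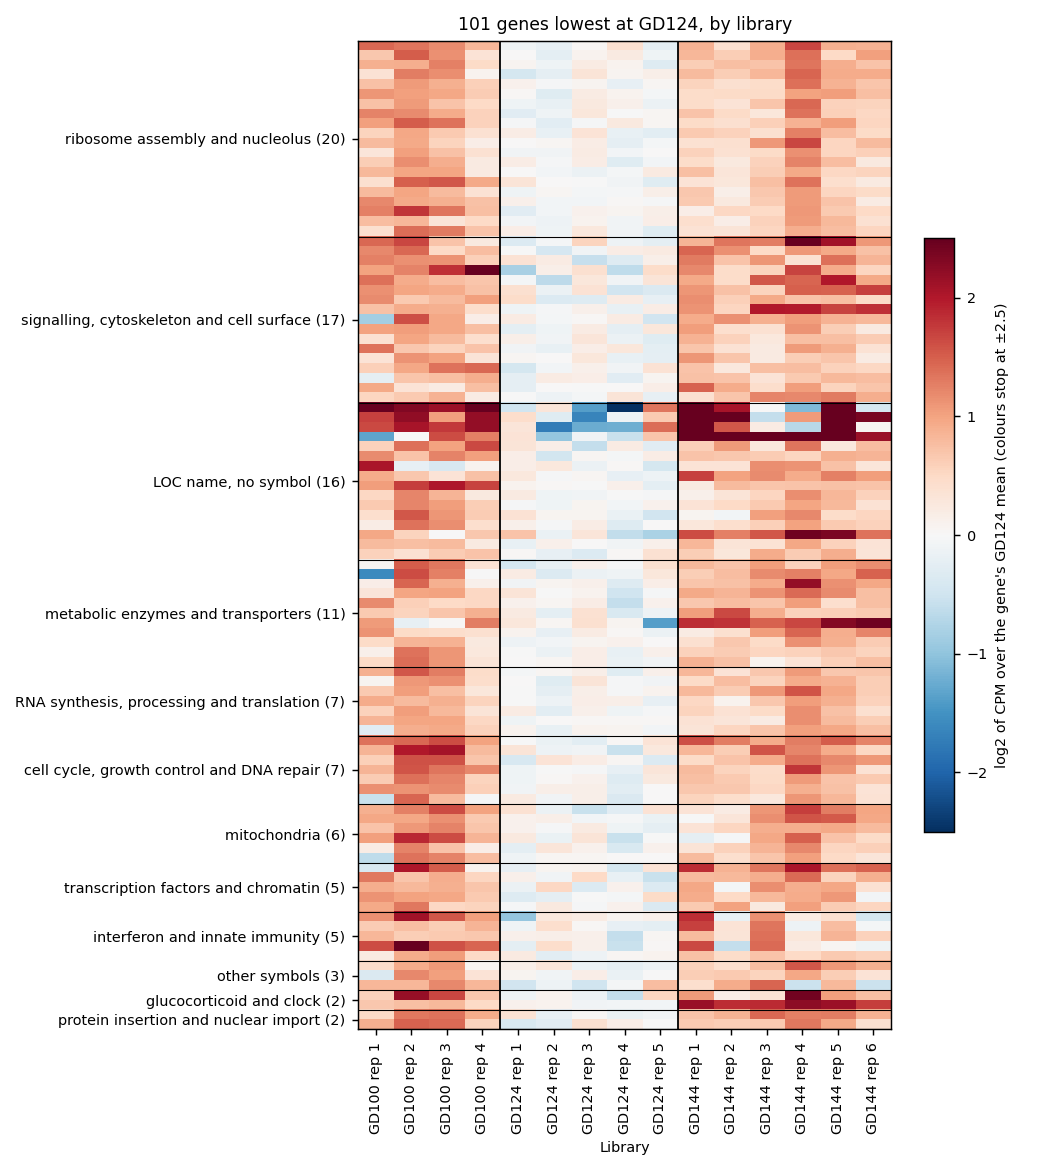
Level of each of the 101 genes (lines, grouped by function) in each of the 15 libraries (columns, ordered GD100, GD124, GD144), as log2 of the CPM over the gene's GD124 mean. The 5 GD124 columns are mostly low, and GD144 replicate 4 is the highest library of its stage in 60 of the 101 genes.

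With edgeR's quasi-likelihood test and an adjusted p under 0.05, 70 of the 101 genes were called lower at GD124 than at GD100, where 34.0% of all 16977 genes tested were called in either direction and 17.4% were called lower. Between GD144 and GD124, 85 of the 101 were called higher at GD144, where 27.5% of all genes were called in either direction, 12.1% higher and 15.4% lower. Both calls together were made for 61 of the 101 genes and for 40 genes that did not meet the rule. These contrasts chose the genes and give no support to the dip. The edgeR fit scales libraries by the trimmed mean of M values (TMM), and the depth of the dip depended on this scaling. The share of counts held by the 20 most abundant genes was 31.5 to 34.8% in GD100 libraries, 35.5 to 37.99% in GD124 libraries and 28.3 to 33.9% in GD144 libraries, and the mean TMM factor of GD124 was 88.2% of that of GD100. With TMM-scaled CPM, all 101 genes still had their lowest mean at GD124, with a median of 67.8% of the lower outer mean, but 40 of them met the rule. With replicate 1 as the only library at GD100, tried because replicates 2 to 4 stood apart, 65 of the 101 met the rule and 26 were called lower at GD124.

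Of the 20 genes for ribosome assembly and the nucleolus, NOP14, UTP20, NOC4L, PWP2, TBL3, UTP3, PDCD11 and LTV1 encode factors of the small subunit or of its precursor. PPAN, BOP1, GNL3, WDR74, RRS1, NIP7, NOP2, FTSJ3 and DDX54 encode proteins with parts in making the large subunit or modifying ribosomal RNA. RPP38 is a protein of the RNA-cutting complexes RNase P and RNase MRP, NPM3 a nucleolar histone chaperone and POLR1G a subunit of RNA polymerase I. Stage means of these 20 genes lay between 5.55 and 51.6 CPM at GD100, between 2.80 and 25.6 at GD124 and between 5.24 and 38.5 at GD144. All GD124 libraries were below all libraries of both other stages in 14 of the 20. With TMM-scaled CPM, 8 of the 20 met the rule. The classes by function were assigned after the values were seen, and 12 of the 20 were in no ribosome list drawn up for the tests.

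PPAN, a factor in processing large-subunit ribosomal RNA, had the deepest dip of the 20. It measured 22.0, 20.6, 18.4 and 14.4 CPM at GD100, then 7.52, 7.08, 8.25, 10.8 and 6.98 CPM at GD124, and 10.8, 14.9 and 25.8 CPM (lowest, median, highest) at GD144. The highest GD124 library was just below the lowest GD144 library. BOP1, which acts with PES1 and WDR12 in a complex for the large subunit, measured 22.9, 32.2, 28.9 and 16.9 CPM at GD100, 10.99, 9.44, 11.04, 13.3 and 11.6 at GD124, and 14.8, 16.7 and 23.1 (lowest, median, highest) at GD144. The GD124 libraries did not overlap either outer stage. GNL3, the nucleolar GTPase nucleostemin, measured 25.1, 31.3, 24.7 and 21.3 CPM at GD100, 13.9, 13.3, 17.9, 16.5 and 13.7 at GD124, and 19.2, 22.2 and 40.6 (lowest, median, highest) at GD144. Again no GD124 library reached either outer stage, and replicate 4 stood far above the other GD144 libraries.

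WDR74, a nucleolar protein of large-subunit maturation, measured 18.3, 21.0, 18.4 and 13.6 CPM at GD100, 9.83, 10.9, 10.2, 10.4 and 11.7 at GD124, and 11.8, 16.1 and 22.3 (lowest, median, highest) at GD144. UTP20, a component of the small-subunit processome, measured 22.3, 23.2, 16.2 and 18.3 CPM at GD100, 12.4, 11.98, 13.8, 12.3 and 14.6 at GD124, and 14.5, 18.4 and 27.1 (lowest, median, highest) at GD144. WDR74 at GD124 was below both stages by a narrow gap to GD144, while 1 GD124 library of UTP20 lay within the GD144 range. NOP14, another small-subunit factor, differed from these in its return. It measured 31.6, 46.0, 33.3 and 22.2 CPM at GD100, 10.8, 12.6, 14.2, 13.8 and 14.7 at GD124, and 14.8, 18.8 and 28.2 (lowest, median, highest) at GD144. It was called lower at GD144 than at GD100 (log2 fold change -0.61, SE 0.18, edgeR adjusted p = 0.0082), the only call among the 20 in that contrast.

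**Figure D2:**
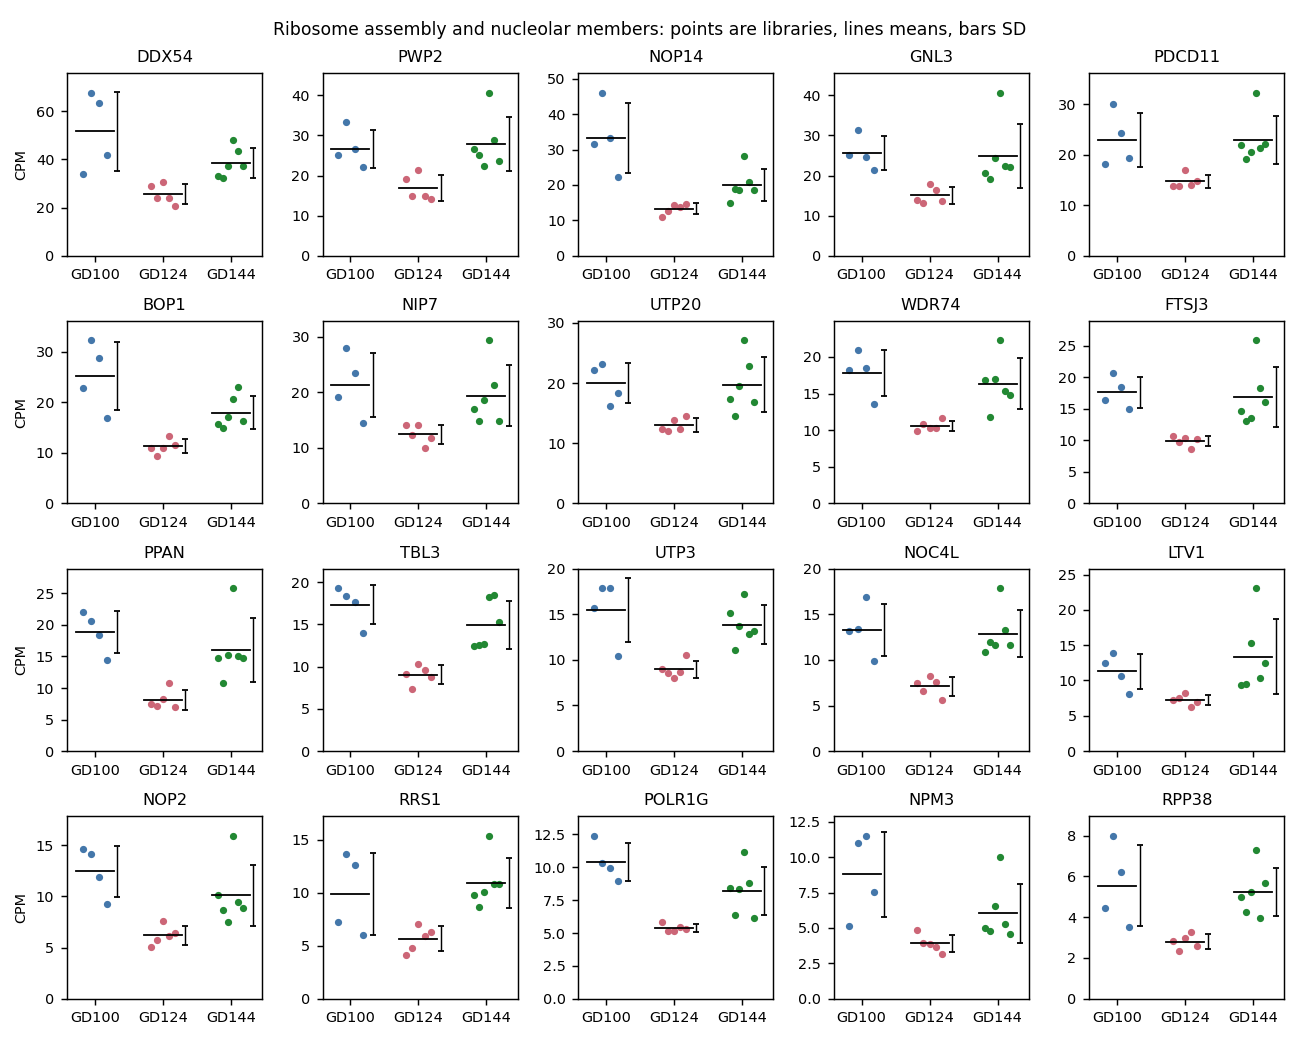
CPM of genes for ribosome assembly in each library at GD100, GD124 and GD144, with points for libraries, lines for stage means and bars for SD. GD124 points lie low and close together, and the highest GD144 point is replicate 4 in 18 of the 20 genes.

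Among GD144 libraries, replicate 4 was the highest in 18 of the 20 ribosome genes (90%) and in 60 of the 101 genes. It was the highest in 29.0% of the 9942 genes at this level. The rule used the GD144 means, so genes high in this library met it more easily. Nothing is read from this comparison. The summed level of the 20 genes was 297 to 474 CPM in GD100 libraries, 192 to 230 in GD124 libraries and 272 to 477 in GD144 libraries. Every GD144 library was above every GD124 library in this sum, which the choice of the genes favours, so the sum is a description. It averaged 308 ± 26.8 CPM at GD144 without replicate 4 (SD, n = 5), 336 ± 73.0 with it (n = 6), and 207 ± 14.4 at GD124 (n = 5). Without GD144 replicate 4, 7 of the 20 ribosome genes and 66 of the other 81 genes still met the rule. PPAN kept a GD144 mean of 14.1 ± 1.88 CPM (SD, n = 5) and met it, while GNL3 had 21.7 ± 1.94 CPM and did not. Within stages the ribosome genes also moved together from library to library. Over the 15 libraries, the median correlation between pairs of the 20 genes, taken on deviations of log2 CPM from the stage means, was 0.60, beside 0.12 among the other 81 genes, 0.53 among 28 listed ribosome biogenesis genes at this level outside the 101, and 0.00 among all 9942 genes. Without GD144 replicate 4 it was 0.43 for the 20 genes and 0.39 for the 28. These points share libraries and their depth.

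A list of 37 genes for ribosome biogenesis, 8 of them among the 101, gave a wider view of the pathway. Of the 37, 19 were called lower and 0 higher at GD124 against GD100 (edgeR, adjusted p under 0.05), beside 17.4 and 16.6% of all genes. The median log2 fold change was -0.47, beside 0.02 over all genes. Between GD144 and GD124, 16 were called higher and 1 lower, beside 12.1 and 15.4% of all genes. The median was 0.45 for the list and -0.01 over all genes. Without GD144 replicate 4, 13 were called higher. The 8 genes chosen for the dip gave 6 of the 19 lower calls and 8 of the 16 higher calls, and both medians include them. Among the 29 listed genes outside the 101, 13 were called lower at GD124 against GD100, 8 were called higher at GD144 against GD124, and 2, MYBBP1A and POLR1B, had both calls.

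The mean was lowest at GD124 in 32 of the 37 listed genes (31 with TMM-scaled CPM), beside 28.4% of all genes tested (18.8% with TMM-scaled CPM). The list includes 8 genes chosen for that shape. The other 5 were FBL, NPM1, UTP15, DDX10 and LYAR, and 4 listed genes with little or no return at GD144 or no dip are given here, picked after their values were seen. NOP56 and FBL, core proteins of the particles that methylate ribosomal RNA, averaged 149 ± 38.7 and 75.6 ± 26.5 CPM at GD100, 65.2 ± 9.16 and 34.6 ± 3.99 at GD124, and 68.9 ± 11.3 and 31.7 ± 4.17 at GD144 (SD, n = 4, 5 and 6). LYAR, a nucleolar zinc finger protein, averaged 53.0 ± 15.2 CPM at GD100, 22.1 ± 5.13 at GD124 and 10.4 ± 2.27 at GD144, so it was lower at each later stage. DDX10, an RNA helicase, averaged 4.43 ± 1.71 CPM at GD100, 5.29 ± 1.70 at GD124 and 7.74 ± 1.68 at GD144. At GD144 against GD100, 3 of the 37 were called higher and 9 lower (edgeR), beside 27.1% higher and 27.9% lower of all genes. The change of LYAR was -2.24 on the log2 scale (SE 0.19, edgeR adjusted p = 1.3e-07).

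**Figure D3:**
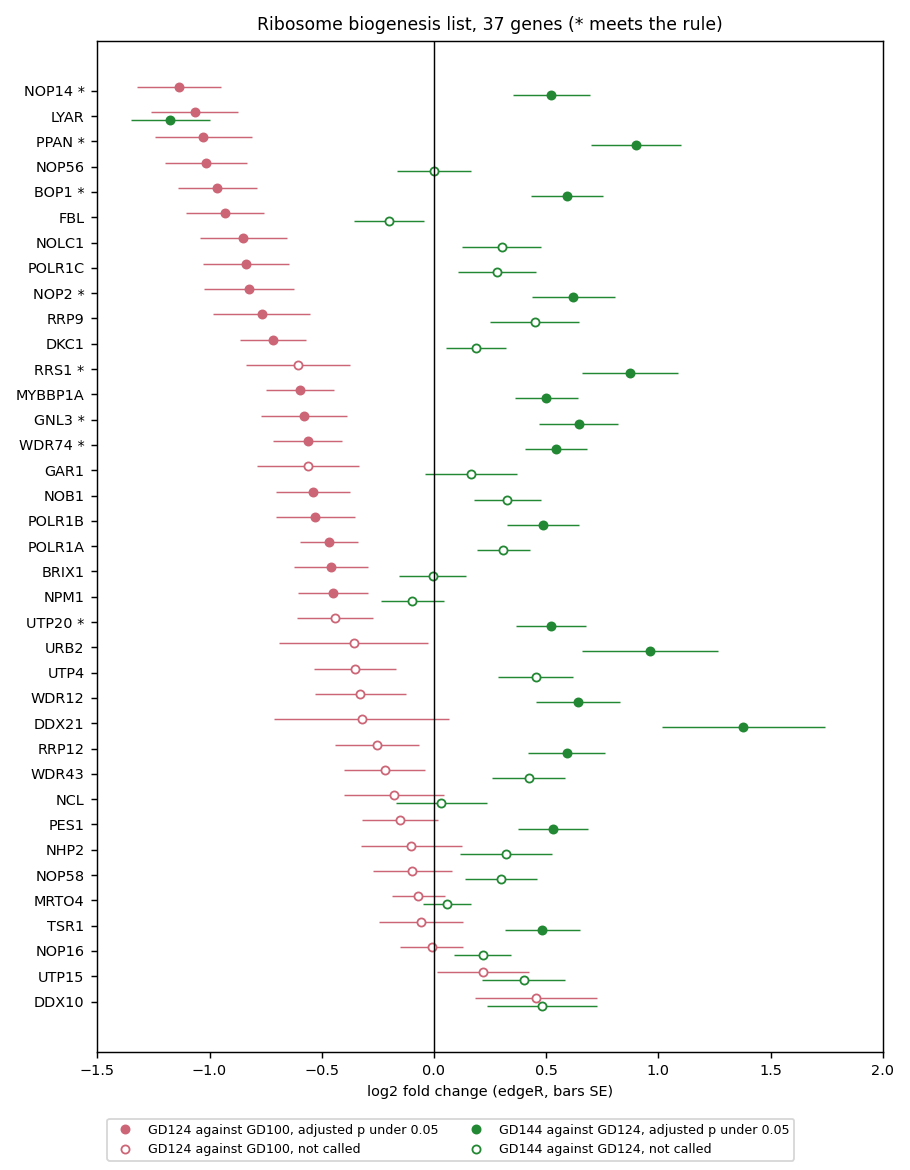
The log2 fold changes (edgeR, bars SE) of the 37 listed ribosome biogenesis genes in the contrasts of GD124 with GD100 and GD144 with GD124, with filled points where the adjusted p was under 0.05 and a star at the 8 genes of the dip group. Filled points lie left of 0 for 19 genes in the first contrast and right of 0 for 16 in the second, with LYAR the 1 filled point left of 0 in the second.

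A further 7 genes act in making, processing or translating RNA: DDX5, DBR1, INTS5, HEXIM1, POLR3E, YBX3 and AIMP2. With TMM-scaled CPM, 1 of these 7 genes met the rule. DDX5, an RNA helicase of splicing and transcription and the most abundant of the 101 genes, measured 163, 215, 174 and 127 CPM at GD100, 103, 88.7, 115, 101 and 110 CPM at GD124, and 158, 192 and 309 CPM (lowest, median, highest) at GD144. HEXIM1, which holds the elongation kinase P-TEFb inactive, measured 111, 101, 108 and 85.7 CPM at GD100, 57.9, 53.7, 66.0, 64.8 and 50.9 at GD124, and 62.4, 90.5 and 122 (lowest, median, highest) at GD144. No GD124 library of DDX5 overlapped either outer stage, whereas HEXIM1 at GD124 overlapped the lowest GD144 library. YBX3, a Y-box protein that binds RNA and DNA, averaged 59.3 ± 8.50 CPM at GD100, 33.1 ± 1.26 at GD124 and 50.5 ± 13.5 at GD144. AIMP2, a scaffold of the complex of tRNA synthetases, averaged 18.1 ± 6.02 CPM at GD100, 11.8 ± 0.98 at GD124 and 19.7 ± 3.48 at GD144. It was the only 1 of the 24 listed tRNA synthetase genes in the group. Of the list, 10 were called lower and 1 higher at GD124 against GD100, beside 17.4 and 16.6% of all genes. At GD144 against GD124, 3 were called higher and 1 lower (edgeR), beside 12.1 and 15.4% of all genes. The mean was lowest at GD124 in 16 of the 24, AIMP2 among them, beside 28.4% of all genes tested. With TMM-scaled CPM it was lowest in 12 of the 24, beside 18.8% of all genes tested.

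FKBP5 and CRY2 belong to the glucocorticoid response and the circadian clock. With TMM-scaled CPM, 0 of these 2 genes met the rule. Cortisol rises in fetal sheep before birth and acts on liver genes through the glucocorticoid receptor. FKBP5, a co-chaperone that dampens this receptor and is itself induced by it in other mammals, measured 34.7, 106, 74.0 and 37.4 CPM at GD100, 21.8, 24.9, 21.0, 15.4 and 33.7 at GD124, and 26.1, 43.4 and 125 (lowest, median, highest) at GD144. In CPM by library totals, GD124 lay just below GD100 and overlapped the lower GD144 libraries. GD144 replicate 4 stood far above the rest of its stage. Without that library the GD144 mean was 38.4 ± 10.3 CPM (SD, n = 5), against 23.3 ± 6.71 at GD124 (n = 5).

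CRY2, a repressor of the clock, had a different shape. It measured 27.6, 28.9, 30.1 and 24.3 CPM at GD100, 18.6, 18.3, 16.3, 16.5 and 16.5 at GD124, and 57.0, 69.1 and 81.7 (lowest, median, highest) at GD144. The 3 stages did not overlap, and GD144 stood well above GD100. Over all genes tested, 16.6% were called higher and 17.4% lower at GD124 against GD100, and 12.1% higher and 15.4% lower at GD144 against GD124. Of the 21 listed clock and glucocorticoid genes, 8 were called higher and 2 lower in the first contrast, and 11 higher and 2 lower in the second (edgeR). The 2 lower calls in the first contrast were FKBP5 and CRY2, which the rule chose for that shape. Both were also among the 11 called higher in the second. Among 3 listed genes picked after their values were seen, TSC22D3, a glucocorticoid-induced leucine zipper gene, averaged 27.2 ± 4.33 CPM at GD100, 51.4 ± 15.6 at GD124 and 179 ± 33.6 at GD144. KLF9 averaged 5.12 ± 2.51, 10.6 ± 3.20 and 100.2 ± 19.4 CPM at GD100, GD124 and GD144, and PER1, a clock gene, 11.97 ± 0.84, 13.2 ± 3.59 and 57.2 ± 7.25 CPM. Of the 21 listed genes, 5 had their lowest mean at GD124 (3 with TMM-scaled CPM): FKBP5, CRY2, PER2, CRY1 and ZBTB16.

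**Figure D4:**
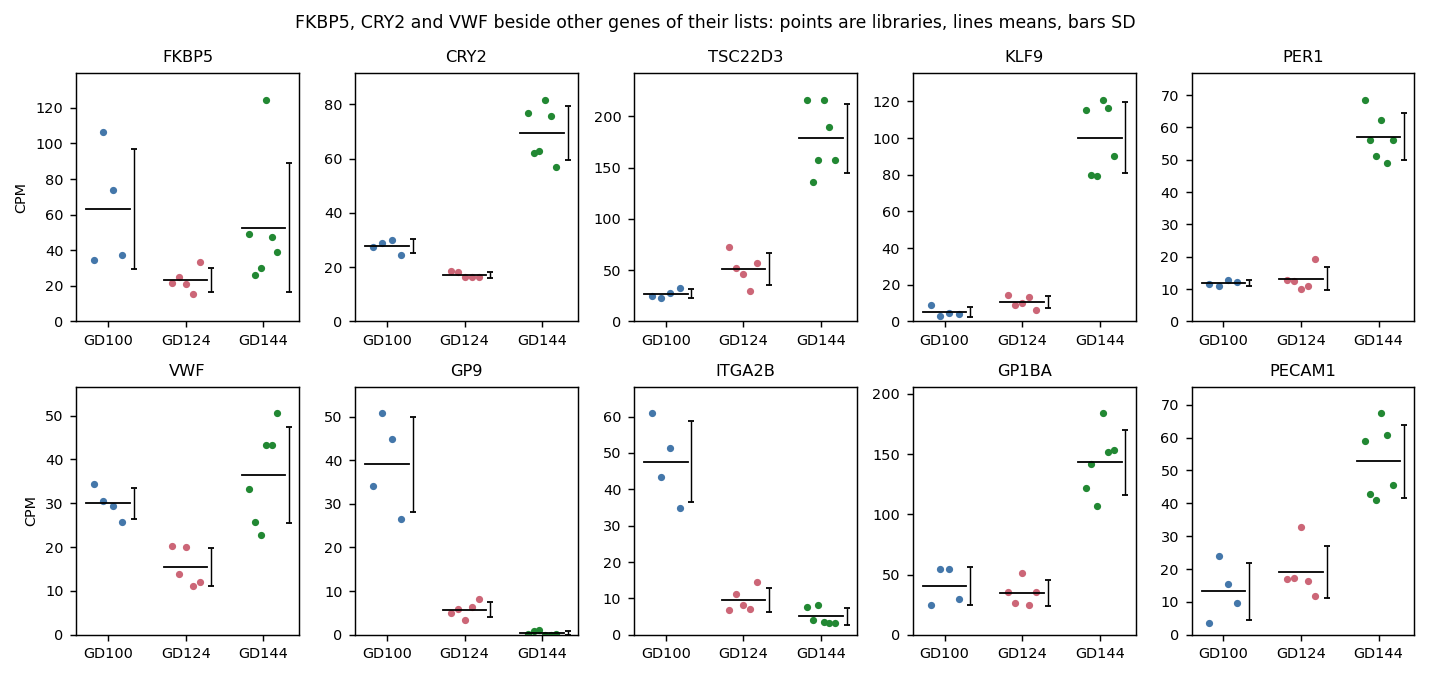
CPM of FKBP5, CRY2 and VWF beside other genes of the clock and glucocorticoid list (TSC22D3, KLF9, PER1), of the megakaryocyte list (GP9, ITGA2B, GP1BA) and of the endothelial list (PECAM1), with points for libraries, lines for means and bars for SD. FKBP5, CRY2 and VWF are low at GD124, while TSC22D3 and KLF9 are higher at each later stage and GP9 and ITGA2B lower.

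VWF, the platelet-binding clotting factor that endothelial cells and megakaryocytes make, measured 34.4, 30.6, 29.5 and 25.8 CPM at GD100, 20.3, 13.9, 19.995, 11.1 and 12.02 at GD124, and 22.8, 38.2 and 50.6 (lowest, median, highest) at GD144. The GD124 libraries did not overlap either outer stage. Of 14 listed megakaryocyte and platelet genes, 8 were called lower and 0 higher at GD124 against GD100, and 9 lower and 2 higher, VWF and GP1BA, at GD144 against GD124 (edgeR). Of 12 listed endothelial genes, 3 were called higher and 0 lower in the first interval and 10 higher and 0 lower in the second. The shares over all genes were 16.6% higher and 17.4% lower, then 12.1% higher and 15.4% lower. The megakaryocyte list held 329 to 414 CPM in GD100 libraries, 88.2 to 174 in GD124 libraries and 187 to 269 in GD144 libraries. This sum includes VWF, and its rise at GD144 went against most of the listed genes. Their median log2 fold change was -1.64 at GD144 against GD124, and 3 of the 14 had their lowest mean at GD124. The endothelial list held 258 to 492 CPM in GD100 libraries, 313 to 550 in GD124 libraries and 563 to 836 in GD144 libraries. The part of these cell types in the level of VWF was not tested.

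USP18, RTP4, RIGI, NLRX1 and NFKBIB belong to interferon signalling or innate immunity. With TMM-scaled CPM, 1 of these 5 genes met the rule. RIGI, a cytoplasmic sensor of viral RNA, measured 26.4, 59.1, 25.7 and 23.4 CPM at GD100, 7.20, 11.4, 9.28, 5.79 and 8.67 at GD124, and 5.59, 9.25 and 26.5 (lowest, median, highest) at GD144. USP18, a protease that restrains interferon signalling, measured 14.9, 28.8, 19.9 and 13.8 CPM at GD100, 3.46, 8.12, 7.74, 7.04 and 7.39 at GD124, and 4.99, 8.32 and 24.2 (lowest, median, highest) at GD144. Both were below all GD100 libraries at GD124 and overlapped the lower GD144 libraries. In RIGI, USP18 and RTP4, GD144 replicates 1 and 3 were the highest of their stage at 15.01 to 26.5 CPM, while the other 4 libraries held 4.99 to 10.4 CPM, a pattern picked out after the values were seen. RIGI was called lower at GD144 than at GD100 (log2 fold change -1.22, SE 0.38, edgeR adjusted p = 0.013). Without GD100 replicate 2 the change was -0.85 (edgeR adjusted p = 0.077). With a block for replicate number it was -1.09 (edgeR adjusted p = 0.062), so the call was lost in both settings. The list of interferon genes includes RIGI and USP18, which the rule chose for low GD124 values, so its counts are not independent of the rule. Of 22 listed interferon genes, 6 were called lower and 2 higher at GD124 against GD100, beside 17.4 and 16.6% of all genes. At GD144 against GD124, 1 was called higher and 0 lower, beside 12.1 and 15.4% of all genes. The mean was lowest at GD124 in 15 of the 22, RIGI and USP18 among them, beside 28.4% of all genes tested. With TMM-scaled CPM it was lowest in 12 of the 22, beside 18.8% of all genes tested.

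Growth control, the cell cycle and DNA repair were represented by XRCC3, CENPU, GADD45A, SERTAD1, SAV1, TTC28 and GRB10. XRCC3, a protein of DNA repair by homologous recombination, measured 16.1, 17.0, 19.4 and 12.5 CPM at GD100, 6.25, 5.62, 5.25, 6.39 and 7.93 at GD124, and 12.001, 15.2 and 19.2 (lowest, median, highest) at GD144. Its GD124 mean was 40.0% of the lower outer mean, the lowest share of any gene with a symbol among the 101, and a clear gap separated GD124 from both other stages. GADD45A, a stress-induced brake on growth, measured 45.8, 103, 107 and 44.4 CPM at GD100, 32.1, 23.5, 23.99, 17.4 and 30.8 at GD124, and 36.6, 47.1 and 76.5 (lowest, median, highest) at GD144. GRB10, an adaptor that restrains insulin receptor signalling, averaged 72.6 ± 20.5 CPM at GD100, 36.4 ± 5.35 at GD124 and 60.4 ± 8.66 at GD144. SERTAD1, a regulator of CDK4 and E2F, averaged 13.0 ± 4.75, 5.64 ± 1.25 and 11.2 ± 2.42 CPM at GD100, GD124 and GD144. In 6 of these 7 genes all GD124 libraries were below both outer stages. Of the 36 listed cell cycle genes, 0 were among the 101. In this list 25 were called lower and 2 higher at GD124 against GD100, beside 17.4 and 16.6% of all genes. At GD144 against GD124, 30 were called lower and 1 higher (edgeR), beside 15.4 and 12.1% of all genes.

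KLF13, ZNF48, ZNF461, NR2F1 and ANKRD11 act on transcription or chromatin, and all 5 met the rule with TMM-scaled CPM as well. KLF13, a zinc finger factor, measured 9.30, 49.8, 35.4 and 13.0 CPM at GD100, 10.7, 13.0, 13.1, 9.12 and 15.7 at GD124, and 22.7, 33.1 and 50.9 (lowest, median, highest) at GD144. Its GD100 libraries fell into a low and a high pair, and GD124 overlapped the low pair. ANKRD11, a chromatin regulator, averaged 108 ± 14.0 CPM at GD100, 56.1 ± 12.9 at GD124 and 94.0 ± 23.9 at GD144.

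Mitochondrial functions were held by MTFP1, SLC25A20, SLC25A5, FASTKD5, TEFM and MYG1. SLC25A20, the carrier that brings acylcarnitines into mitochondria for fatty acid oxidation, measured 43.4, 43.4, 48.8 and 34.9 CPM at GD100, 24.05, 24.5, 21.1, 21.6 and 19.8 at GD124, and 22.1, 46.8 and 65.9 (lowest, median, highest) at GD144. GD124 was below GD100 throughout, and the lowest GD144 library lay within the GD124 range. MTFP1, a protein of mitochondrial fission, averaged 14.1 ± 3.33 CPM at GD100, 6.05 ± 1.69 at GD124 and 12.4 ± 4.77 at GD144.

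Metabolic enzymes and transporters made up 11 genes: GMPS, CRYL1, ALDOA, DPP3, CARNMT1, PRXL2B, ABCG5, ALDH16A1, SLC6A8, MFSD9 and P3H3. ALDOA, a glycolytic aldolase, measured 89.5, 57.3, 55.8 and 54.1 CPM at GD100, 43.6, 35.7, 47.0, 41.8 and 36.8 at GD124, and 47.5, 80.9 and 112 (lowest, median, highest) at GD144. The lowest GD144 library was next to the highest GD124 library, and GD100 replicate 1 stood above the other 3. ABCG5, which with ABCG8 exports sterols into bile, measured 16.6, 6.83, 8.10 and 19.1 CPM at GD100, 9.59, 8.19, 10.4, 8.26 and 3.06 at GD124, and 22.1, 28.1 and 42.7 (lowest, median, highest) at GD144. At GD124 it overlapped the lower GD100 libraries, and all GD144 libraries were above all others. Of the metabolic genes, 1 met the rule with TMM-scaled CPM.

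Signalling, cytoskeleton and the cell surface took 17 genes, including VWF: ARHGEF17, ARFIP2, INPP5E, NPR2, WNK2, MCRIP2, TSKU, SEMA3G, PPL, SMTN, FHOD1, MAP1S, EDIL3, LRFN4, TMEM200B and STX3 were the others. Stage means in this class lay between 5.05 and 43.9 CPM at GD100, between 2.58 and 29.2 at GD124 and between 5.14 and 57.9 at GD144. EDIL3, a secreted protein that binds integrins, measured 8.27, 9.64, 4.94 and 3.58 CPM at GD100, 2.40, 2.95, 4.48, 2.79 and 2.56 at GD124, and 5.48, 7.52 and 20.8 (lowest, median, highest) at GD144. Its GD124 libraries overlapped the lowest GD100 library and no GD144 library. ARHGEF17, a guanine nucleotide exchange factor, averaged 9.08 ± 2.62, 4.48 ± 0.759 and 9.03 ± 2.06 CPM at GD100, GD124 and GD144. ARFIP2, which binds Arf and Rac GTPases, averaged 13.0 ± 2.40, 6.25 ± 1.59 and 12.4 ± 3.11 CPM, and LRFN4, an adhesion protein known from synapses, 5.05 ± 1.15, 2.58 ± 0.642 and 6.44 ± 2.46 CPM at the same stages. GD124 did not overlap GD100 or GD144 in LRFN4, ARHGEF17 and ARFIP2.

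EMC9, a subunit of the complex that inserts proteins into the endoplasmic reticulum membrane, averaged 18.4 ± 4.76 CPM at GD100, 8.79 ± 1.48 at GD124 and 18.8 ± 3.80 at GD144. IPO4, a nuclear import receptor, lies near it in the RefSeq annotation, with 4 genes between, and had the same low point with GD124 below both stages. The remaining symbols were RWDD1, TMBIM1 and KLHDC8A, and 0 of these 3 met the rule with TMM-scaled CPM. TMBIM1, a membrane protein of the BAX inhibitor family, averaged 123 ± 54.0 CPM at GD100, 76.9 ± 7.06 at GD124 and 120 ± 16.8 at GD144.

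The other 16 of the 101 genes carry LOC names, and no role is given to them here. LOC132658253, LOC101107641 and LOC101111694, picked out after their values were seen, had the deepest dips of all, with GD124 means at 23.5, 27.5 and 29.6% of the lower outer mean. LOC132658253 measured 31.8, 17.4, 15.4 and 25.8 CPM at GD100, 2.49, 4.32, 1.34, 0.502 and 8.81 at GD124, and 1.62, 9.03 and 41.8 (lowest, median, highest) at GD144. GD144 libraries thus ran from within the GD124 range to above every GD100 library. In all 3 genes GD144 replicates 1, 2 and 5 were the highest of their stage and GD124 replicate 5 the highest of its own. LOC101107641 and LOC101111694 lie near each other in the annotation with 2 genes between. Counts were fractional in 13 to 15 of the 15 libraries for these 3 genes, so reads may be shared with other copies.

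GD144 against GD100 is the contrast whose direction the rule did not set. Of the 101 genes, 8 were called higher and 4 lower at GD144 (edgeR, adjusted p under 0.05), and 89 were not called, where 55.0% of all genes were called, 27.1% higher and 27.9% lower. The median log2 fold change was 0.04, beside 0.03 over all genes. The rule leaves out genes that move one way through both intervals, so this low share is not independent of it and nothing is read from it. The GD144 mean was above the GD100 mean in 36 genes and below it in 65, and within 1.25-fold of it in 68.

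CRY2 had the firmest difference, at 1.42 on the log2 scale (SE 0.11, edgeR adjusted p = 7.6e-08). ABCG5 rose by 1.36 (SE 0.37, edgeR adjusted p = 0.0061), with 30.7 ± 8.07 CPM at GD144 (n = 6) against 12.7 ± 6.10 at GD100 (n = 4). TSKU, a secreted leucine-rich protein made by the liver, rose by 0.97 (SE 0.24, edgeR adjusted p = 0.0022), with 34.9 ± 11.8 CPM at GD144 against 19.3 ± 2.76 at GD100. MCRIP2 was at 57.9 ± 13.2 CPM at GD144 against 43.9 ± 8.06 at GD100 (log2 0.52, SE 0.19, edgeR adjusted p = 0.028). DPP3, a peptidase, was at 18.7 ± 3.20 CPM at GD144 against 14.98 ± 3.51 at GD100 (log2 0.43, SE 0.17, edgeR adjusted p = 0.039). The calls of MCRIP2 and DPP3 were lost when single libraries of GD100 or GD144 were left out, MCRIP2 without GD100 replicate 2 or 4 or GD144 replicate 3 or 5, and DPP3 without GD100 replicate 1 or 4 or GD144 replicate 3, 4 or 5. Both were also lost with library totals (edgeR adjusted p = 0.071 for MCRIP2 and 0.16 for DPP3). A block for replicate number lost both too (edgeR adjusted p = 0.10 for MCRIP2 and 0.082 for DPP3). DPP3 was also lost with RLE size factors (edgeR adjusted p = 0.057) and with DESeq2 (adjusted p = 0.052). The other 3 genes called higher were LOC101102047, LOC101108756 and LOC101102013, with log2 fold changes of 1.97, 1.34 and 0.61; these and the LOC gene called lower were picked after their values were seen. With replicate 1 as the only library at GD100, CRY2 and DPP3 kept their calls, while ABCG5, TSKU, MCRIP2, RIGI, NOP14 and TMEM200B were not called.

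On the lower side stood RIGI and NOP14, described above, LOC101121590 at a log2 fold change of -0.89, and TMEM200B at -0.87 (SE 0.36, edgeR adjusted p = 0.047). TMEM200B measured 4.38, 5.35 and 10.2 CPM (lowest, median, highest) at GD144, and 6.33, 7.45, 11.3 and 22.6 CPM at GD100. Its highest GD100 value came from replicate 4, without which the change was -0.30 and not called. The call, close to the threshold, was also lost with no filter and without GD100 replicate 3, GD124 replicate 2, 3 or 5, or GD144 replicate 1, 2, 3, 5 or 6, at edgeR adjusted p-values of 0.0503 to 0.088. A block for replicate number also lost the TMEM200B call (edgeR adjusted p = 0.11). XRCC3, with 15.7 ± 2.54 CPM at GD144 against 16.3 ± 2.84 at GD100, differed by 0.05 on the log2 scale (SE 0.15, edgeR adjusted p = 0.78).

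**Figure D5:**
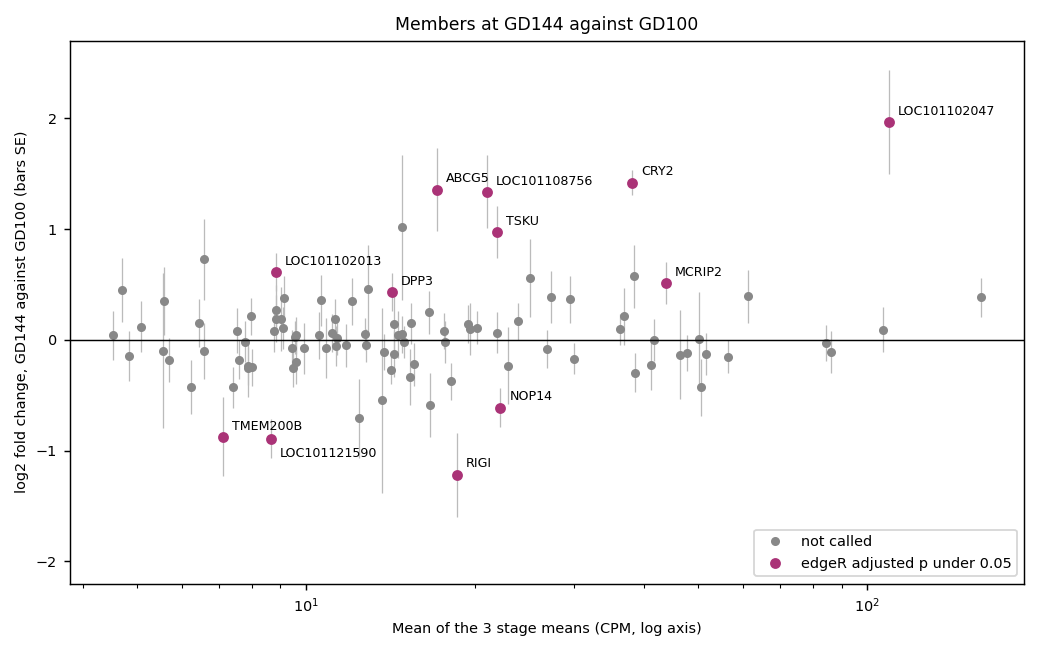
The log2 fold change of each of the 101 genes at GD144 against GD100 (edgeR, bars SE) against the mean of its 3 stage means in CPM, on a log axis. Named points are the 12 genes with an adjusted p under 0.05, 8 above 0 and 4 below, and most of the others lie near 0.

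At the threshold of the rule, DDX54, an RNA helicase, and P3H3, a collagen-modifying enzyme, were just inside, each with a GD124 mean of 66.47% of the GD144 mean. SPIDR, a DNA repair scaffold, and MYBBP1A, a nucleolar protein, were just outside at 66.73 and 66.75%. DDX54 averaged 51.6, 25.6 and 38.5 CPM and MYBBP1A 37.6, 21.8 and 32.7 CPM at GD100, GD124 and GD144.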

How the data were processed

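The study deposited 1 table of estimated counts per gene for 15 poly(A) RNA libraries. The authors' values are expected (estimated) counts, not normalised. DRAGEN is named in the submitters' processing notes; its version is not given in the sources used here, nor are build, annotation and strand setting. Fractional entries made up 6.55% of the table and were rounded, moving library totals by 27.86 counts at most. CPM was computed from library totals, and 2434 tRNA rows and 2 further genes were left out of the choice of genes. All 31411 genes went into 1 edgeR 4.0.16 quasi-likelihood fit (R 4.3.3), with TMM factors, filterByExpr (16977 genes left), a term per stage and Benjamini-Hochberg adjustment within each contrast. The script was tested on simulated data. No 2 replicates agreed within sampling noise (lowest chi-square per degree of freedom 43.7). Gene names and overlaps came from RefSeq's table of assembly ARS-UI_Ramb_v3.0, in which all 101 genes were found; the build of the counts is not known, so no coordinates are given.

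The genes and lists were chosen with earlier results of these data known, and the classes by function after the values were seen. Genes described with values were chosen by list membership, depth of dip (15 genes), abundance (8), calls between GD144 and GD100 and distance to the threshold; others are named as members of a class or said to be picked after their values were seen. Alternatives were RLE size factors, library totals, no filter, DESeq2 1.42.0, a replicate block, and leaving out each library.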

Additional observations from a re-analysis of the deposited data

Results flagged for a closer look

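In 9 of 117 groups of libraries checked, over 39 genes, 1 library stood apart from the rest of its stage by Dixon's test at the 95% level; chance alone gives about 1 in 20 groups. At GD144, replicate 4 was high for FKBP5 at 125 CPM, where the other 5 libraries held 26.1 to 49.1 CPM. The same library was high for GNL3 at 40.6 CPM, with the others at 19.2 to 24.4, and for PPAN at 25.8 CPM, with the others at 10.8 to 15.3. At GD124, EDIL3 was high in replicate 3 at 4.48 CPM (others 2.40 to 2.95). SPIDR was low in GD124 replicate 4 at 2.82 CPM (others 3.89 to 4.13). In GD124 replicate 1, USP18 was low at 3.46 CPM (others 7.04 to 8.12) and YBX3 at 30.9 CPM (others 33.2 to 33.9). At GD100, RIGI was high in replicate 2 at 59.1 CPM (others 23.4 to 26.4) and ALDOA in replicate 1 at 89.5 CPM (others 54.1 to 57.3).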

How the results depend on the processing

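The number of genes that met the rule, 101, changed with scaling: it was 40 with TMM-scaled CPM, 50 with RLE-scaled CPM and 56 when library totals left out the 20 most abundant genes. It was 10 at a limit of 50% of each outer mean, 161 with a floor of 1 CPM, 48 when GD124 had to lie below both stages, and 81 to 140 when single libraries were left out. With library totals alone, the median log2 change of all genes at GD124 against GD100 was -0.16, beside 0.02 with TMM; all genes called higher numbered 1805 in place of 2825. In that setting, 7 of the 101 genes were called lower at GD144 against GD100 in place of 4, and 1 listed ribosome gene higher in place of 3; with no filter that last count was 5. Leaving out single libraries gave 6 to 11 higher and 3 to 7 lower of the 101 in that contrast, and 1 to 5 higher and 7 to 10 lower listed ribosome genes. The 7 came without GD100 replicate 1 or GD144 replicate 4, the 1 without GD100 replicate 1 and the 5 without GD100 replicate 2. At GD124 against GD100 it gave 49 to 76 of the 101 lower, 15 to 22 listed genes lower, and 1867 (without GD100 replicate 3) to 2957 genes higher and 2302 to 3277 lower among all genes. At GD144 against GD124 it gave 73 to 90 of the 101 higher and 11 to 19 listed genes higher. Same-numbered libraries had correlations of deviations from -0.15 to 0.14. Differently numbered libraries were not compared, so whether replicate numbers pair the samples is not settled. With the replicate block, 2 of the 101 were called lower at GD144 against GD100. In that setting 9 listed ribosome genes were called higher at GD144 against GD124. Keeping replicate 1 alone at GD100 was tried after seeing the data, like the scaling without 20 genes, and assumes that this lone library varies like the other groups. The rule then found 165 genes, 65 of them among the 101. The counts of the 101 were 26 lower at GD124 against GD100, and 13 higher and 1 lower at GD144 against GD100. Listed ribosome genes were 8 lower at GD124 against GD100, and 6 higher and 4 lower at GD144 against GD100. All genes were 1575 higher and 1592 lower at GD124 against GD100. TMEM200B then turned to a log2 change of 9.2e-05. The causes of these shifts were not tested.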
